A study of Mus musculus with 10 samples.

Results

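A group of 18 protein coding genes stayed at trace level in the 8 libraries of a mouse lymphoma model not labelled lymphoma and was read in both of its lymphoma libraries. The genes were chosen by their measured level: at least 3 CPM (a gene's estimated counts scaled to the total of its library) in both lymphoma libraries and under 0.5 CPM in each of the 8 others. Ccl22 was left out of the choice. It passed the lymphoma minimum, at 318 and 273 CPM, but its 1.35 and 1.45 CPM in the NF-kB-activated libraries lie above the limit. The rule found 18 of the 21556 protein coding genes, or 0.0835%. Their difference between lymphoma and the other libraries is therefore a description of how they were picked and was not tested.

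RNA was sequenced from B lineage cells sorted from C57BL/6 mice, in 5 groups of 2 libraries each, 10 in all, to study joint NF-kB and Notch signalling in transformation. Controls were wild type. NF-kB-activated mice carried Rosa-NIKdeltaT3flSTOP with CD19Cre, Notch-activated mice carried Rosa-Notch2ICN with CD19Cre, and doubly activated mice carried both Rosa alleles with CD19Cre. The lymphoma cells had the same 3 alleles as the doubly activated cells and came from lymphoma tissue. The cells of all other groups came from lymph node, as marginal zone precursor B cells in 3 groups and as marginal zone B cells in the Notch-activated group. CD19Cre drives recombination in the B lineage, and the Rosa alleles express NIK, a kinase of the non-canonical NF-kB pathway, or the intracellular part of Notch2. No label says whether paired libraries were taken from different mice or tumours, so p-values measure the spread between these libraries, which may be technical.

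Several facts of the libraries bear on all results. Depth ran from 16380889 to 23102081 estimated counts. In both lymphoma libraries Ighv1-11 led the heavy chain V segments, with 92.5% (95% Wilson interval 92.3% to 92.7%, counting error only) and 92.3% (92.1% to 92.5%) of their counts, so the 2 libraries shared 1 dominant V segment and whether they hold 1 tumour was not tested. In the libraries labelled Notch-activated Ighv1-55 held 92.9% (92.3% to 93.5%) and 94.0% (93.3% to 94.5%), while no segment passed 7.39% (6.86% to 7.97%) in the other groups. Heyl, a Notch target, was at 54.0 and 47.4 CPM in those 2 libraries and at 0.427 and 0.377 CPM in the controls. Notch2 counts were not raised with the Notch2ICN allele in any group that carries it: they were 301 and 299 CPM in the Notch-activated, 671 and 703 in the doubly activated, 145 and 170 in the lymphoma and 646 and 683 CPM in the control libraries. The same libraries held 845 to 1150 CPM of 14 stromal marker genes, against 1.91 to 4.14 CPM in all other groups. The Y-linked Ddx3y differed between the controls, at 59.2 and 0.647 CPM. None of the 18 genes lies on a sex chromosome. B lineage genes were present in lymphoma, where Cd79a, a signalling chain of the B cell receptor, was at 1131 and 1037 CPM.

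Mature B cells shut off most genes that serve other tissues. Tumours of many kinds are known to read genes of unrelated tissues. In bulk RNA, more cells that read a gene and more RNA per cell cannot be told apart. The 18 genes fall by their known products into receptors and channels of the cell surface, secreted signals, enzymes, transcription factors, and proteins of contractile or reproductive cells.

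**Figure D1:**
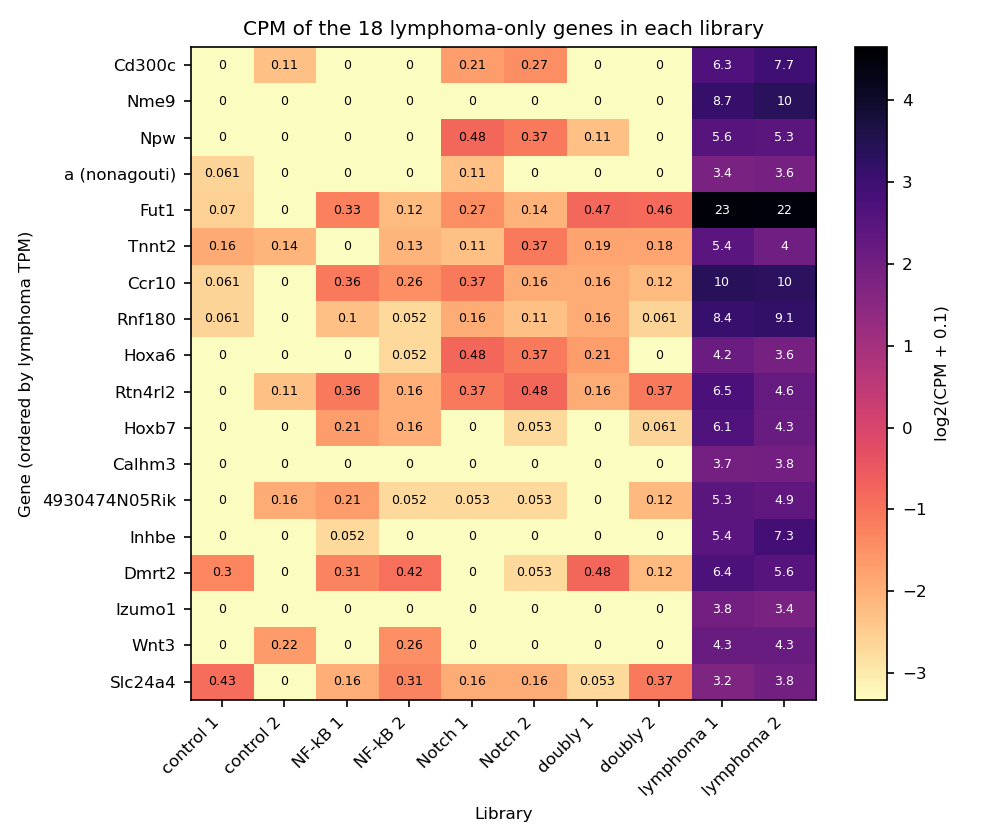
CPM of each of the 18 genes (rows, ordered by mean TPM in lymphoma) in each of the 10 libraries (columns). Colour is log2 of CPM plus 0.1, and the number in a cell is the CPM. The 2 lymphoma columns lie between 3.25 and 22.7 CPM, while the highest value elsewhere is 0.479 CPM, in Dmrt2 and Rtn4rl2.

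Read per transcript length, as TPM, the 18 genes were of moderate to low level in lymphoma. They ran from 17.1 TPM for Cd300c to 1.60 TPM for Slc24a4, which are the 63.2 and 33.0 percentiles of the 15908 protein coding genes with any TPM there. Summed over the 18 genes, lymphoma held 118 to 120 CPM, doubly activated cells 1.87 to 1.98, Notch-activated 2.58 to 2.76, NF-kB-activated 1.97 to 2.09 and controls 0.728 to 1.15 CPM. The traces in the other libraries were spread over the groups: the highest value outside lymphoma lay in a Notch-activated library for 7 of them. The rule asked for at least 3 CPM in both lymphoma libraries, so how alike these 2 are in the 18 genes was partly set by the choice. The log2 ratio of library 2 to library 1 had a median size of 0.17 over the 18 genes and ran from -0.51 for Rtn4rl2 to 0.45 for Inhbe. The median size was 0.19 over 3319 protein coding genes in the same range of mean CPM, a set not held to that minimum in each library.

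Among the surface receptors, Cd300c had the highest TPM of the 18. It encodes an immunoglobulin-like receptor of the CD300 family, which is known from myeloid cells. Cd300c (ENSMUSG00000058728, chr11:114956116-114969157, minus strand, GRCm38) was at 6.32 and 7.65 CPM in lymphoma, at 0.212 and 0.266 CPM in the Notch-activated libraries, at 0 and 0.108 CPM in the controls and at 0 in the other 4. Only 58.0% of its lymphoma counts fell on protein coding transcripts, and 42.0% on the processed transcript Cd300c-203. Of the 31-base words of its leading transcript, 4.24% are shared with Cd300c2 and Cd300a. Those relatives did not follow Cd300c: Cd300c2 was at 0.303 and 0.467 CPM in lymphoma and Cd300a at 7.75 and 7.33 CPM beside 6.57 and 4.27 CPM in doubly activated cells. Of the 8 other CD300 genes tested, 2 were higher in lymphoma than in doubly activated cells and none was lower, a share close to the 26.1% of all genes tested that were higher. Cd300lf, an inhibitory member, stood at 355 ± 15.6 CPM (SD, n = 2) beside 12.2 ± 0.276 CPM. It was no gene of lymphoma alone, with 200 and 190 CPM in the Notch-activated libraries and 43.3 to 61.6 CPM in the controls.

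Ccr10 encodes the receptor of the chemokines CCL27 and CCL28, which guides plasma cells to mucosa and T cells to skin. Ccr10 (chr11:101172997-101175443, minus strand) was at 10.3 and 9.99 CPM in lymphoma. The NF-kB-activated libraries held 0.363 and 0.260 CPM, the Notch-activated 0.371 and 0.160, the doubly activated 0.160 and 0.122, and the controls 0.0609 and 0 CPM. Its lymphoma values lie far above all others, and the traces elsewhere amount to 28 counts over 8 libraries against 451 in lymphoma. The gene lies within Cntnap1 on the opposite strand, and Cntnap1 itself was at 66.7 and 76.6 CPM in lymphoma and 6.14 and 4.26 CPM in doubly activated cells. Ccr10 exons overlap no exon of Cntnap1, and whether unspliced Cntnap1 RNA added to the Ccr10 counts was not tested. Of 9 other Ccr genes tested between lymphoma and doubly activated cells, 3 were higher and 2 lower, beside 26.1% and 25.2% of all genes tested. Ccrl2, Ccr1 and Ccr2 were higher. Ccr6 was lower, at 0.0649 ± 0.0918 against 118 ± 18.3 CPM, and so was Ccr7, at 70.4 ± 5.72 against 198 ± 62.2 CPM.

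Calhm3, Slc24a4 and Rtn4rl2 encode other membrane proteins. Calhm3, a subunit of a voltage-gated ATP channel of taste cells, was at 3.68 and 3.78 CPM in lymphoma and had no count in any other library. Set against a floor of 3 counts over those 8 libraries, it was at least 182-fold higher. Slc24a4, a potassium-dependent sodium and calcium exchanger, was at 3.25 and 3.83 CPM in lymphoma. The controls held 0.427 and 0 CPM of it, the NF-kB-activated libraries 0.156 and 0.312, the Notch-activated 0.159 and 0.160 and the doubly activated 0.0532 and 0.366 CPM, and only control 2 had no count. Its counts were split over 3 coding transcripts. Of 3 other Slc24 genes tested in the same contrast 1 was higher and 1 lower, the latter Slc24a1 at 0.270 ± 0.0144 against 1.13 ± 0.0508 CPM. Rtn4rl2, a Nogo receptor homologue that binds myelin proteins on neurons, was at 6.54 and 4.57 CPM in lymphoma. Elsewhere it ran from 0 (control 1) to 0.479 CPM (Notch-activated 2), with a median of 0.261 CPM over the 8 libraries. Its relative Rtn4rl1 was also higher in lymphoma, at 9.96 ± 0.422 CPM against 0.369 ± 0.00440 CPM in doubly activated cells (log2 4.73 ± 0.31 SE, adjusted p = 1.16e-07, edgeR). Rtn4rl1 was no gene of lymphoma alone, with 10.7 and 10.3 CPM in the Notch-activated libraries and 1.46 and 1.51 CPM in the controls.

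The secreted signals were Npw, Inhbe, Wnt3 and the nonagouti gene a. Npw, which encodes neuropeptide W, a ligand of G protein-coupled receptors in brain, was at 5.58 and 5.27 CPM in lymphoma. Its other counts lay in the Notch-activated libraries, at 0.477 and 0.372 CPM, and in doubly activated 1, at 0.106 CPM. The related Npb was lower in lymphoma than in doubly activated cells, at 0.110 ± 0.0894 against 3.38 ± 1.01 CPM (log2 -4.84 ± 0.63 SE, edgeR adjusted p = 4.34e-05). Npbwr1 was lower as well, at 0.477 ± 0.241 against 2.61 ± 1.62 CPM. Inhbe encodes the beta E subunit of activin, a secreted dimer best known from liver. It was at 5.38 and 7.33 CPM in lymphoma and 0.0520 CPM, a single count, in NF-kB-activated 1, with no count in the other 7 libraries. Wnt3 encodes a ligand of Frizzled receptors. It was at 4.29 and 4.34 CPM in lymphoma, 0.215 CPM in control 2, 0.260 CPM in NF-kB-activated 2 and 0 elsewhere.

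Wnt3 was alone among its kind in passing the rule. Of 18 other Wnt genes, 8 could be tested between lymphoma and doubly activated cells and 1 was higher. That gene was Wnt10a, at 15.3 ± 3.16 against 1.25 ± 0.643 CPM (log2 3.58 ± 0.42 SE, edgeR adjusted p = 7.00e-05). It was higher still in the NF-kB-activated libraries, at 47.9 and 38.8 CPM. Nearest to Wnt3 on its left, Wnt9b had a mean of 0.0467 CPM in lymphoma. Nsf, a vesicle fusion factor on its right, was at 115.5 ± 3.60 against 82.6 ± 3.61 CPM.

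The gene a encodes agouti signalling protein, a melanocortin receptor antagonist that switches hair pigment, and C57BL/6 mice carry its nonagouti allele. It was at 3.38 and 3.64 CPM in lymphoma, 0.0609 CPM in control 1, 0.106 CPM in Notch-activated 1 and 0 in the other 6 libraries. Of its lymphoma counts 84.4% fell on a-205, a transcript annotated as a retained intron at chr2:155047615-155051011, and 15.6% on the coding a-202. No count fell on a-204, which starts upstream beside Raly. Raly, which overlaps the long form of the locus, was at 109 ± 4.65 CPM in lymphoma and 140 ± 6.02 CPM in doubly activated cells.

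**Figure D2:**
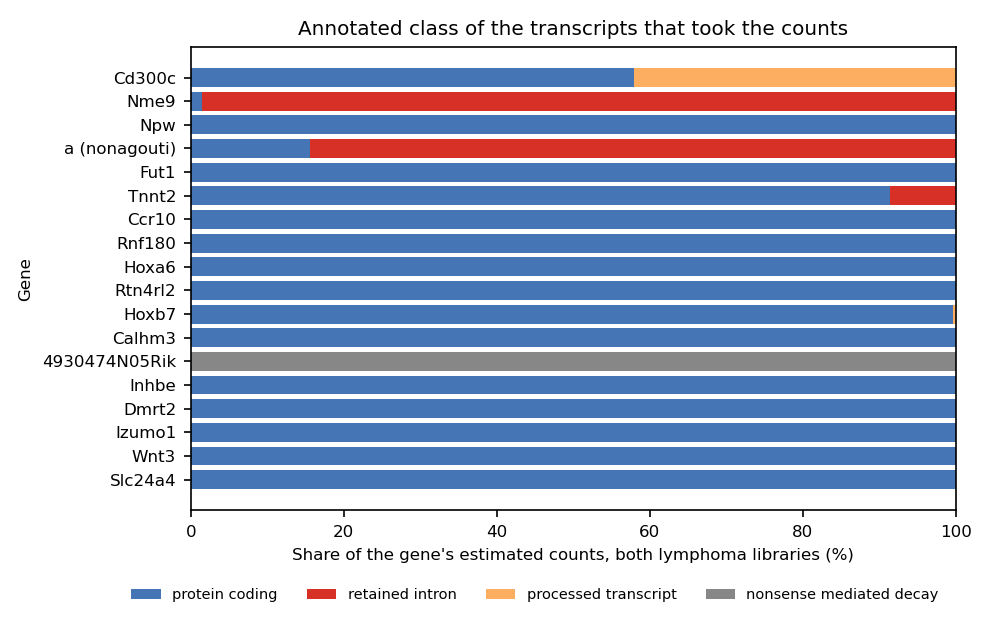
Share of each gene's estimated counts (percent, both lymphoma libraries together) that fell on transcripts of each annotated class. For 14 genes over 90% lies on protein coding transcripts, while Nme9 and a lie mostly on retained introns and 4930474N05Rik on transcripts marked for nonsense-mediated decay.

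Among the enzymes, Nme9 gave the largest bounded ratio. It belongs to the nucleoside diphosphate kinase family, carries a thioredoxin domain and is known from sperm and cilia. Nme9 (chr9:99451475-99474751, plus strand) was at 8.70 and 10.2 CPM in lymphoma. It had no count in the 8 other libraries, each of which allows at most 0.156 to 0.183 CPM at a floor of 3 counts. Against that floor over all 8 libraries lymphoma was at least 460-fold higher. The reads did not describe the whole gene: 98.6% of the counts lay on Nme9-201, a retained-intron transcript of 2 exons at its 3′ end (chr9:99470421-99474751), and 1.44% on the coding Nme9-202. The flanking Armc8 was at 41.4 ± 3.24 CPM in lymphoma and 38.2 ± 3.70 CPM in doubly activated cells (log2 0.11 ± 0.10 SE, adjusted p = 0.379), so Nme9 was read where its neighbour was not called different.

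Fut1 had the highest CPM of the 18 and the fifth highest TPM. It encodes an alpha-1,2-fucosyltransferase that makes the H antigen on glycoproteins and glycolipids. Fut1 was at 22.7 and 22.3 CPM in lymphoma. The doubly activated libraries held 0.466 and 0.460 CPM, the NF-kB-activated 0.330 and 0.121, the Notch-activated 0.265 and 0.141, and the controls 0.0704 and 0 CPM. Fut4, an alpha-1,3-fucosyltransferase, was higher in lymphoma as well, at 5.96 ± 1.02 against 0.362 ± 0.166 CPM (log2 3.997 ± 0.48 SE, adjusted p = 2.10e-05). In contrast to Fut1, it was at 8.69 and 9.68 CPM in the Notch-activated libraries. Fut2, which makes the H antigen in epithelia, stayed at 0.154 and 0.140 CPM in lymphoma.

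Rnf180, a membrane-bound E3 ubiquitin ligase, was at 8.44 and 9.10 CPM in lymphoma and between 0 and 0.160 CPM elsewhere. Its nearest neighbours, 4933425L06Rik and Htr1a, had no count in lymphoma or doubly activated libraries.

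Izumo1 lies 751 bases downstream of Fut1 on chromosome 7 and is read from the same strand. The other genes of the set that share a chromosome are at least 2598706 bases apart. Izumo1 encodes the sperm protein that binds the egg receptor at fertilization. It was at 3.76 and 3.40 CPM in lymphoma and had no count elsewhere, so that lymphoma was at least 175-fold higher against a floor of 3 counts. The next gene, Rasip1, which overlaps the Izumo1 locus, was at 10.3 and 8.58 CPM in lymphoma. It was at 0.266 and 0.916 CPM in doubly activated and 2.97 and 2.07 CPM in Notch-activated libraries. The leading Izumo1 transcript shares no exonic base with another gene. Whether transcription running on from Fut1 added to Izumo1 was not tested. Stretches before the RefSeq starts of both genes, outside their annotated exons, are shown because the genes are neighbours that were both chosen (GRCm38.p6, plus strand). The stretches are chr7:45617495-45617605 for Fut1 and chr7:45621561-45621810 for Izumo1. The Fut1 stretch lies inside the annotated Fut1 locus, which begins at 45617289, and before its leading transcript, which begins at 45617606. In capitals, the Izumo1 stretch holds TGGGAA, the core bound by the Notch effector RBPJ, and the cAMP response element TGACGTCA, while the Fut1 stretch holds none of the motifs searched.
Fut1: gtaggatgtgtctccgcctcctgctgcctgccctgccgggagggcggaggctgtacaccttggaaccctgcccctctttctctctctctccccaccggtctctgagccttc
Izumo1: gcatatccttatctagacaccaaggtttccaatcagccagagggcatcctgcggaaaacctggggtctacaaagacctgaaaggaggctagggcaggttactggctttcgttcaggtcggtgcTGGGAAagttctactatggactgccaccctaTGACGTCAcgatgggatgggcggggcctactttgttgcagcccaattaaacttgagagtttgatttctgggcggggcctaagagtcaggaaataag

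The transcription factors were Hoxa6, Hoxb7 and Dmrt2. Hox proteins set position along the body axis and, in blood, act in stem and progenitor cells, where their genes lie in 4 clusters and neighbours are often read together. Hoxa6 (chr6:52206288-52208722, minus strand) was at 4.199 and 3.64 CPM in lymphoma. It was at 0.477 and 0.372 CPM in Notch-activated libraries, 0.213 and 0 in doubly activated, 0 and 0.0520 in NF-kB-activated and 0 in both controls. Hoxb7 (chr11:96286623-96290162, plus strand) was at 6.06 and 4.34 CPM in lymphoma. It was at 0.208 and 0.156 CPM in NF-kB-activated libraries and at 0 or 1 count in the other 6. Dmrt2, a DM domain factor of the developing somites, was at 6.45 and 5.65 CPM in lymphoma. It came closest to the upper limit elsewhere, together with Rtn4rl2. The doubly activated libraries held 0.479 and 0.122 CPM, the NF-kB-activated 0.311 and 0.416, the controls 0.305 and 0, and the Notch-activated 0 and 0.0532 CPM.

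Both Hox genes sat inside a stretch of their cluster that was higher in lymphoma than in doubly activated cells. Of 6 other HoxA genes tested 5 were higher, and of 5 other HoxB genes 4 were higher, with none lower, beside 26.1% of all genes tested. On either side of Hoxa6, Hoxa5 was at 15.1 ± 0.0221 CPM against 0.556 ± 0.335 (log2 4.77 ± 0.45 SE, adjusted p = 2.36e-06). Hoxa7 was at 7.97 ± 0.190 CPM against 2 counts in the doubly activated libraries (adjusted p = 8.72e-05). Hoxa3 was at 10.5 ± 0.802 CPM. The stretch ended beyond Hoxa7: Hoxa9 had a mean of 0.0649 CPM in lymphoma, and Hoxa10, Hoxa11 and Hoxa13 had no count there. Hoxa6 lies within the Hoxa3 locus. Its leading transcript shares no exonic base with another gene and 3.32% of its 31-base words with other Hox genes, and the part of Hoxa3 RNA in its counts was not tested.

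In the HoxB cluster Hoxb7 was the last gene read. Hoxb8, next to it, had no count in lymphoma, and Hoxb9 a mean of 0.0815 CPM. On its other side Hoxb6 was at 10.02 ± 0.889 CPM against 0.652 ± 0.318 (log2 3.94 ± 0.57 SE, adjusted p = 9.72e-05). Hoxb5 was at 5.58 ± 0.370 CPM against 0.304 ± 0.172 (log2 4.15 ± 0.77 SE). Hoxb3 differed less, by log2 2.15 ± 0.45 SE. Hoxb4 was called higher by 0.72 ± 0.23 on the log2 scale (adjusted p = 0.0219), but was at 8.06 and 6.21 CPM already in the controls, and its call was lost without any 1 of the 4 libraries and in DESeq2 (adjusted p = 0.0539).

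HoxA genes were read in the libraries labelled Notch-activated: Hoxa5 at 4.40 and 5.64 CPM, against 0.0609 and 0.269 CPM in controls (log2 4.72 ± 0.53 SE, adjusted p = 7.60e-06), and Hoxa7 at 3.66 and 6.97 CPM. In the HoxB cluster, Hoxb3 was lower there than in controls (log2 -2.995 ± 0.52 SE, adjusted p = 2.66e-04) and Hoxb4 likewise (log2 -3.21 ± 0.28 SE, adjusted p = 7.94e-07). The Notch-activated libraries are those with high stromal marker genes, whose part in their HoxA values was not tested. Hoxb7 itself had 0 and 1 count in the Notch-activated libraries.

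**Figure D3:**
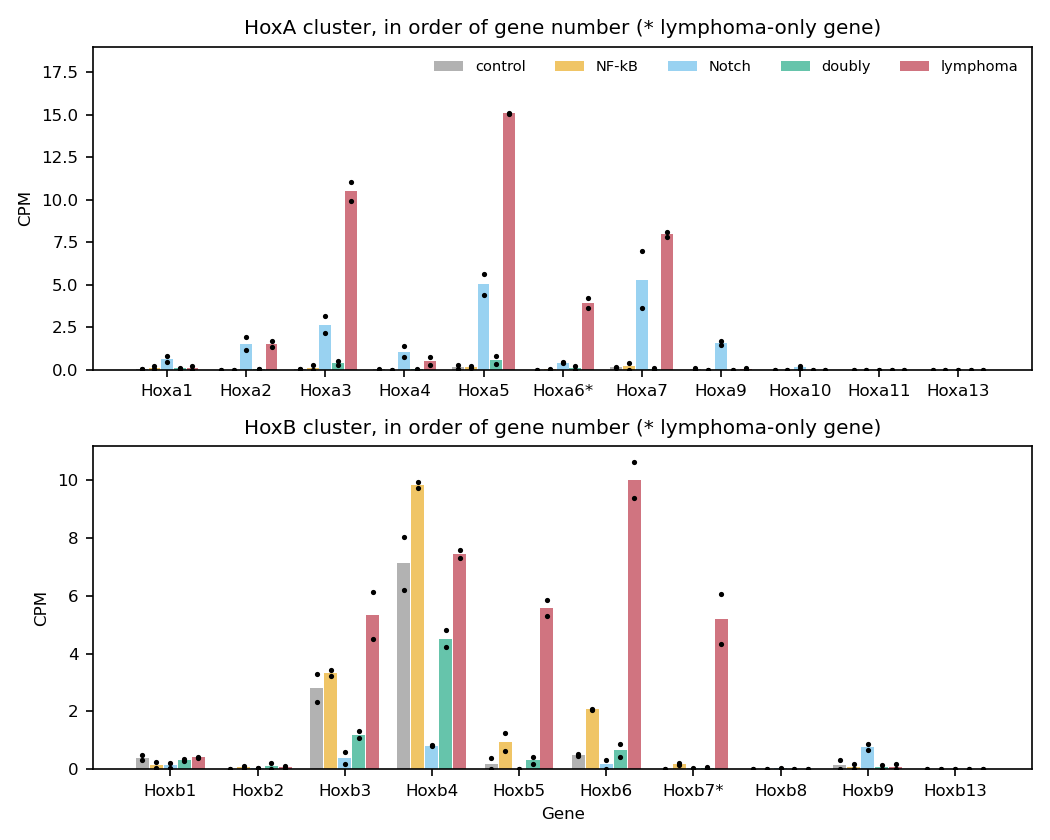
CPM of the HoxA and HoxB genes (bars, mean of 2 libraries; dots, single libraries) in the 5 groups, in order of gene number. In lymphoma Hoxa5 reaches 15.1 CPM and Hoxb6 10.02 CPM, while no gene after Hoxa7 or Hoxb7 reaches 1 CPM there.

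Upstream stretches of Hoxa6 and Wnt3 are shown because both hold TGGGAA, on the reverse strand and printed as TTCCCA in capitals. They are chr6:52208723-52208922 (minus strand) and chr11:103773925-103774149 (plus strand) in GRCm38.p6, taken before the RefSeq start and outside annotated exons.
Hoxa6: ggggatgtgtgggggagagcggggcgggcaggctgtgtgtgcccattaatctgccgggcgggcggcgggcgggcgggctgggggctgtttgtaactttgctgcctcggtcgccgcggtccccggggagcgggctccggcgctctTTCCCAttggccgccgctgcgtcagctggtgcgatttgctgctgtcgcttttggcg
Wnt3: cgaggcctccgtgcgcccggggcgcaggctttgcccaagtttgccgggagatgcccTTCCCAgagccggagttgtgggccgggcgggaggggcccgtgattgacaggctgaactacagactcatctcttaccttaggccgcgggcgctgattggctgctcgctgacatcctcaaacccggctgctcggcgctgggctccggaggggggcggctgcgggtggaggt

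RefSeq promoter windows of 300 bases (250 before the start and 50 after) were matched for 14 of the 18 genes, and 9 of these starts lie within 100 bases of the start of the leading transcript. Searched on both strands, TGGGAA was in 5 of the 14 windows (Hoxa6, Inhbe, Izumo1, Nme9 and Wnt3), against 25.6% of all 32851 windows. The windows of Inhbe and Nme9 lie 2563 and 14178 bases from the start of their leading transcript. Those of Rnf180, Tnnt2 and a are also over 100 bases off. These windows may not be the upstream sequence of the RNA that was read, and where that RNA began was not tested. For NF-kB, only 1 exact form of the kappa B site was searched, and it was in none of the 14 and in 0.155% of all. Other forms of the site were not searched. With a form so rare among all windows, its absence from 14 does not show that they lack kappa B sites. TGATGNAA, a composite element of ATF4, was in 1 window (Inhbe; 3.97% of all), and TGACGTCA in 1 (Izumo1; 1.79%). The TATA box TATAAA was in 1 window (4930474N05Rik; 13.6% of all) and the E-box CACGTG in 1 (Slc24a4; 7.15%). The windows were ordinary in composition: the median ratio of observed to expected CpG was 0.374 against 0.384 over all, and median GC content was 56.5% against 52.7%. A motif match describes letters and is no evidence of binding.

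Tnnt2 encodes cardiac troponin T of the thin filament. It was at 5.37 and 3.96 CPM in lymphoma and between 0 and 0.368 CPM elsewhere, with a count in 7 of 8 libraries. Its counts were spread over several of 15 transcripts, with 47.4% on the leading one. Of 5 other troponin genes tested between lymphoma and doubly activated cells, 2 were higher and 1 lower. The lower one was Tnni3, at 2.31 ± 0.409 against 5.89 ± 0.251 CPM (log2 -1.35 ± 0.37 SE, edgeR adjusted p = 0.00848). Tnnc1 was not called, at 0.291 ± 0.0354 against 0.456 ± 0.162 CPM. The 2 higher, Tnni2 and Tnnt3, are also counted in the muscle list below, which does not hold Tnni3. Of other heart and muscle genes, Actc1 was at 0.0433 and 0.0467 CPM in lymphoma, and Des, Myod1 and Myog had no count. Of 7 other muscle genes tested 4 were higher in lymphoma (median log2 1.03, beside 0.01 over all genes tested) and none lower, where 26.1% of all genes were higher and 25.2% lower. These included Ttn, titin, at 259 ± 70.8 against 42.4 ± 0.953 CPM, and Tnni2, a troponin I of fast muscle, at 4.74 ± 0.764 against 1.45 ± 1.11 CPM. Ttn was also at 434 and 423 CPM in the Notch-activated and 195 and 186 CPM in the NF-kB-activated libraries, beside 2.07 and 2.10 CPM in controls. The Tnni2 call was lost without doubly activated 2 (adjusted p = 0.0910) or lymphoma 1 (0.0687).

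The last gene, 4930474N05Rik, has no product described here. It was at 5.26 and 4.95 CPM in lymphoma, all on a transcript annotated for nonsense-mediated decay, and between 0 and 0.208 CPM elsewhere. Of its 31-base words 5.09% occur in Gm7853 and Hjurp.

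The limits of the rule cut through a continuous range. Just inside the lymphoma minimum lay Slc24a4 at 3.25 CPM in its lower library, the nonagouti gene a at 3.38 and Izumo1 at 3.40. Just outside lay Lrrc36 at 2.99, Slc19a3 at 2.47 and Rnf183 at 2.38 CPM. Just inside the upper limit lay Dmrt2 and Rtn4rl2, both at 0.479 CPM in their highest other library, and Npw at 0.477. Just outside lay Neurl1a at 0.532, Lpin3 at 0.583 and Ap3b2 at 0.585 CPM. With the same limits, 210 protein coding genes were read in the Notch-activated libraries alone, 1 in the NF-kB-activated and none in the control or doubly activated libraries.

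The traces of the 18 genes outside lymphoma are given as counts, since the rule held them under 0.5 CPM in all 8 libraries. Npw and Hoxa6 each had 9 and 7 counts in the libraries labelled Notch-activated and none in the controls. Fut1 had 8.76 and 7.53 estimated counts in the doubly activated libraries, against 1.15 and 0 in the controls. Ccr10 had 7 and 5 counts in the NF-kB-activated libraries and 7 and 3 in the Notch-activated, against 1 and 0 in the controls. In these 4 genes the named groups lie above both controls, on at most 9 counts in a library. The 4 were named out of the 18 with their values known, so nothing is read from this.

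All 18 entered the fit over 15583 genes only through their lymphoma counts, so how many were called among the other groups was limited by the choice of genes. Fut1 was called higher in doubly activated than in control cells, and Ccr10 in NF-kB-activated cells. In the Notch-activated libraries Npw, Hoxa6, Ccr10, Rtn4rl2 and Fut1 were called higher. These are 1 of 18 (10.5% of all genes tested were higher, 9.3% lower, 19.8% either), 1 of 18 (8.72%, 6.6%, 15.3%) and 5 of 18 (34.2%, 29.5%, 63.7%). None was lower. The calls of Npw and Hoxa6 rest on 9 and 7 counts each in the Notch-activated libraries, against none in the controls. The other calls were lost without 1 of the libraries compared. By edgeR's adjusted p, Fut1 in doubly activated cells was lost without control 2 (0.0513), and Ccr10 in NF-kB-activated cells without control 2 (0.188), NF-kB-activated 1 (0.159) or NF-kB-activated 2 (0.0769). In the Notch-activated libraries Ccr10 and Fut1 were lost without Notch-activated 1 (both 0.182) or control 2 (0.166 and 0.276), and Rtn4rl2 without Notch-activated 2 (0.0851) or control 1 (0.132). In lymphoma against doubly activated cells, the contrast the rule used, all 18 were called higher (26.1% of all genes, 51.3% in either direction). Nothing is read from any of these calls or counts of members, and the 3 comparisons with controls share those libraries.

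Genes on either side of the 18 were not part of the rule. Their nearest protein coding neighbours number 34, of which 24 could be tested between lymphoma and doubly activated cells. Of these 11 were higher, or 45.8%, beside 26.1% of all genes tested, and 5 were lower, or 20.8%, beside 25.2%. The median log2 difference was 0.89, beside 0.01 over all genes tested. It was 0.30 when Mras, at or under a floor of 3 counts in both groups, was given no difference. With the nearest 2 genes on each side, 22 of 48 were higher, again 45.8%.

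The largest neighbour difference was beside Npw. Slc9a3r2, a scaffold protein for membrane transporters, was at 61.1 ± 4.34 CPM in lymphoma and 0.263 ± 0.146 CPM in doubly activated cells (log2 7.86 ± 0.27 SE, adjusted p = 6.40e-10). It was at 2.17 and 1.81 CPM in the Notch-activated libraries, the group that also held most traces of Npw. On the other side of Npw, Zfp598 was at 95.1 ± 2.11 and 97.8 ± 2.34 CPM. Neurl1a, beside Calhm3, was at 3.71 ± 0.501 CPM against 3 counts in doubly activated cells (adjusted p = 7.70e-04) and missed the rule by 1 Notch-activated library.

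Cntnap1, a contactin-associated protein of nerve fibres that surrounds Ccr10, was higher (log2 3.78 ± 0.20 SE, adjusted p = 2.08e-08). Rasip1, an endothelial Ras-interacting protein beside Izumo1, was higher as well (4.01 ± 0.58, adjusted p = 9.56e-05). Slc43a3, a purine base transporter beside Rtn4rl2, was at 69.02 ± 0.533 against 22.6 ± 3.25 CPM. The Notch-activated libraries held 78.1 and 79.5 CPM of Slc43a3. Eif2s2, a translation initiation subunit within the long a locus, was at 217 ± 8.09 against 88.8 ± 0.652 CPM. The 5 neighbours that were lower were Raly, Ezh1, Slc43a1, Smarca2 and Cpsf2, by 0.22 to 0.83 on the log2 scale.

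**Figure D4:**
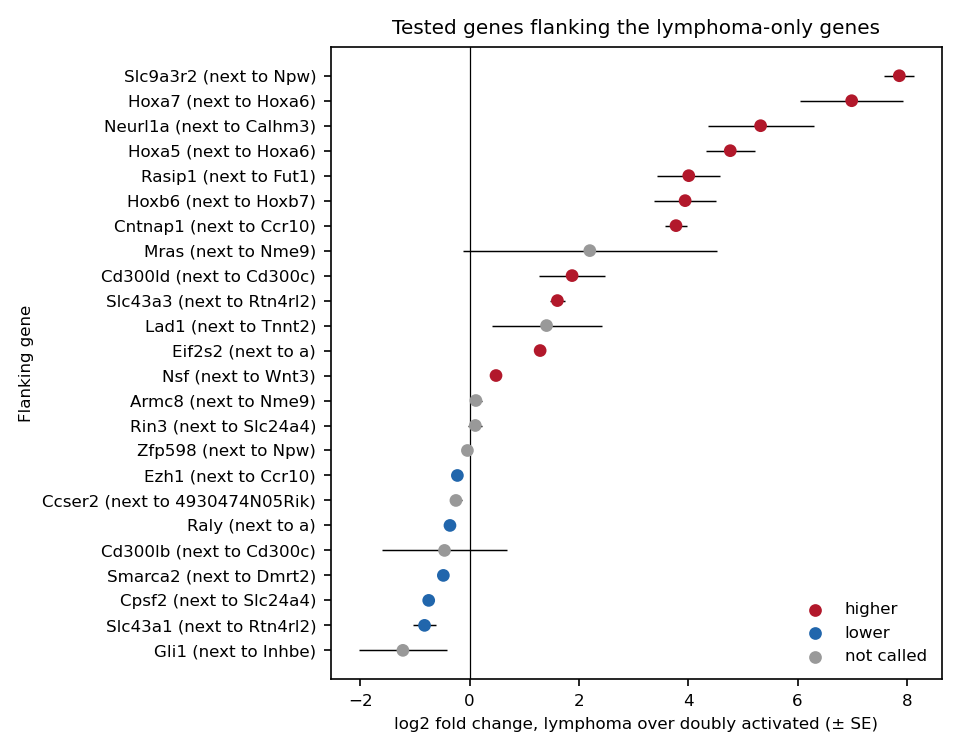
Log2 fold change of lymphoma over doubly activated cells (points, with SE as bars) for the 24 tested neighbours of the 18 genes. Red points were called higher, blue lower and grey not called, and the values of Hoxa7, Neurl1a and Mras rest on 3 or fewer counts in doubly activated cells.

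Lists of tissue genes were set beside the 18, to see whether other genes of the same tissues were read in lymphoma. Genes of the 18 are left out of each list. Each count is to be read beside all genes tested in this contrast, of which 26.1% were higher and 25.2% lower. Nme9 was set beside ciliary genes: of 8 tested 3 were higher and 1 lower (median log2 0.75, beside 0.01 over all genes tested), and 5 of 19 had no count in lymphoma. Ccdc40, an axonemal assembly factor, was at 2.87 ± 0.566 against 0.537 ± 0.0686 CPM, but at 5.25 and 6.49 CPM in the Notch-activated libraries. Foxj1, the regulator of motile cilia, was lower, at 0.160 ± 0.104 against 2.21 ± 0.415 CPM.

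Izumo1 was set beside germline genes. Of 22 genes 8 had no count in lymphoma and 18 were under 1 CPM in both libraries, and of 5 tested 2 were higher. Piwil2, of the piRNA pathway, was at 7.96 ± 1.09 against 0.834 ± 0.201 CPM (log2 3.25 ± 0.36 SE, adjusted p = 1.11e-05), but was at 9.81 and 10.3 CPM in the Notch-activated libraries. The call of Ddx4, a germ cell helicase at 3.03 ± 0.669 against 0.792 ± 0.0841 CPM, was lost without lymphoma 2 (adjusted p = 0.0733), doubly activated 1 (0.0597) or doubly activated 2 (0.0759). Of 9 neuronal genes tested beside Rtn4rl2 and Npw, 3 were higher and none lower. Snap25, of synaptic vesicle fusion, was at 1.11 ± 0.0668 against 0.0659 ± 0.0933 CPM. Tubb3, a neuronal tubulin, was at 1.11 ± 0.945 against 0.170 ± 0.0674 CPM, but at 4.69 and 5.99 CPM in the Notch-activated libraries. Both calls were lost without doubly activated 2 (adjusted p = 0.0924 and 0.125), Snap25 also in DESeq2 (0.0550) and Tubb3 also without lymphoma 2 (0.286) or doubly activated 1 (0.0770).

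Of 17 homeobox and other developmental factors tested, 8 were higher and 2 lower. Their median log2 was 2.19, or 0.72 with groups at 0 set at a floor of 3 counts. Hoxa5, Hoxa7, Hoxb4, Hoxb6 and Hoxc4 are among the 8, and all but Hoxc4 were already counted with the HoxA and HoxB clusters. Hoxa5, Hoxa7 and Hoxb6 are also among the neighbours called higher, so these counts overlap. Pbx3, a Hox cofactor, was at 27.0 ± 3.25 against 2.71 ± 0.903 CPM (log2 3.30 ± 0.28 SE, adjusted p = 9.03e-07). Hoxc4 was at 3.38 ± 0.360 against 0.434 ± 0.163 CPM, while of 3 HoxD genes tested none was called.

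Plasma cell genes were higher in lymphoma beside Ccr10: 10 of 11 tested, with none lower and a median log2 of 2.17. Xbp1, the driver of the secretory programme, was at 629 ± 4.96 against 68.4 ± 4.35 CPM, and Derl3, of the endoplasmic reticulum, at 214 ± 1.72 against 6.03 ± 1.71 CPM. Derl3 was at 54.2 and 52.3 CPM in the Notch-activated libraries. Jchain did not follow, at 43.9 and 42.9 CPM in lymphoma and 63.3 and 61.1 CPM in doubly activated cells. Tnfrsf17 stayed low, at 0.346 and 0.280 CPM in lymphoma. Genes of B cell identity were lower in 12 of 14, with a median log2 of -0.78, and 1 was higher. Cr2, the complement receptor of marginal zone cells, was at 24.5 ± 3.11 against 2744 ± 94.0 CPM, and Fcer2a, the low affinity IgE receptor, at 4.36 ± 0.0607 against 412 ± 66.7 CPM. The Notch-activated libraries were low as well, at 118 and 118 CPM of Cr2 and 11.5 and 10.1 CPM of Fcer2a.

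Of 17 Notch targets tested 4 were higher and 5 lower (median log2 -0.41). Among the higher was Cdkn1a, a cell cycle inhibitor, at 12.8 ± 1.67 against 0.502 ± 0.193 CPM. Cdkn1a was higher still in the Notch-activated libraries, at 34.4 and 45.2 CPM. Of 26 NF-kB targets 5 were higher and 17 lower (median log2 -0.67). Traf1, a TNF receptor adaptor, was at 92.0 ± 4.05 against 277.6 ± 12.3 CPM, and Lta, lymphotoxin alpha, at 9.21 ± 1.48 against 40.0 ± 1.91 CPM.

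Markers of other cell types that a sorted sample could hold were also counted, and their part in the 18 genes was not tested. Of 13 macrophage markers tested 3 were higher and 1 lower, and the summed CPM of the whole list of 15 was 79.9 to 83.1 in lymphoma, 23.5 to 48.6 in doubly activated and 54.9 to 222 in control libraries. Cd68 made up most of the lymphoma sum, at 57.3 ± 1.52 CPM, and Mrc1 was at 2.60 ± 0.243 CPM, while Vsig4 and Clec4f had no count. Lyz2 was at 3.68 and 3.03 CPM in lymphoma, beside 19.4 and 7.26 CPM in doubly activated cells. The call of Mrc1 was lost without any 1 of the 4 libraries (adjusted p = 0.0551 to 0.134). Of 7 mast cell, basophil and eosinophil markers 3 were higher, and the whole list of 12 summed to 113 to 122 CPM in lymphoma against 15.2 to 17.1 CPM in doubly activated cells. This sum came mostly from Kit (82.6 ± 8.12 CPM) and Prg2 (23.9 ± 1.90 CPM), while Cpa3, Mcpt8, Tpsb2 and Fcer1a were at 0 in both lymphoma libraries.

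Of 17 T and NK cell markers 2 were higher and 5 lower. The whole list of 18 summed to 188 to 203 CPM in lymphoma and 60.2 to 81.9 CPM in doubly activated cells. Cd8b1 alone made up 169 and 155 CPM, Cd3e was at 0.346 and 0.887 CPM, and Prf1 was lower at 2.57 ± 0.262 against 16.5 ± 0.575 CPM. In the Notch-activated libraries Cd8b1 was at 37.4 and 33.9 CPM, beside 3.57 and 3.11 CPM in the controls.

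Of 11 stromal markers 1 was higher and 1 lower (3.65 to 4.14 CPM in lymphoma). Pdgfrb was at 1.997 ± 0.0524 CPM against 0 in doubly activated cells, but at 14.7 and 18.7 CPM in the Notch-activated libraries. Col1a2 was lower, at 0.101 ± 0.0733 against 0.485 ± 0.0812 CPM, a call lost without doubly activated 1 (adjusted p = 0.135), doubly activated 2 (0.0715), lymphoma 2 (0.171) or both Notch-activated libraries (0.0576). Dcn and Lum had no count in lymphoma. Of 7 endothelial markers 2 were higher and 2 lower: Cdh5 was at 11.3 ± 1.14 against 2.05 ± 0.119 CPM and Pecam1 at 52.6 ± 2.70 against 203 ± 8.25 CPM.

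Of 5 epithelial markers 2 were higher. Krt18 was at 1.04 ± 0.739 CPM against 0, and Epcam at 16.3 ± 3.17 against 9.90 ± 1.13 CPM, a call lost without doubly activated 2 (adjusted p = 0.116) or lymphoma 1 (0.179). In the Notch-activated libraries Krt18 was at 5.14 and 3.72 CPM. Of 7 erythroid and megakaryocyte markers 2 were higher, Itga2b at 3.60 ± 0.0699 against 1.14 ± 0.137 CPM and Hba-a1 at 16.9 ± 2.61 against 0.533 ± 0.754 CPM. Of 10 dendritic cell markers 2 were higher and 2 lower, with Bst2 at 86.9 ± 16.1 against 20.4 ± 0.571 CPM and Zbtb46 at 14.4 ± 1.31 against 27.2 ± 1.39 CPM. Bst2 was at 94.6 and 117 CPM in the Notch-activated libraries. Of 12 neutrophil markers 1 was higher: Retnlg at 1.02 ± 0.213 against 0.0798 ± 0.113 CPM, lost without doubly activated 2 (adjusted p = 0.0549). Camp, at 0.483 ± 0.439 CPM against 0, was not called (adjusted p = 0.0535).

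**Figure D5:**
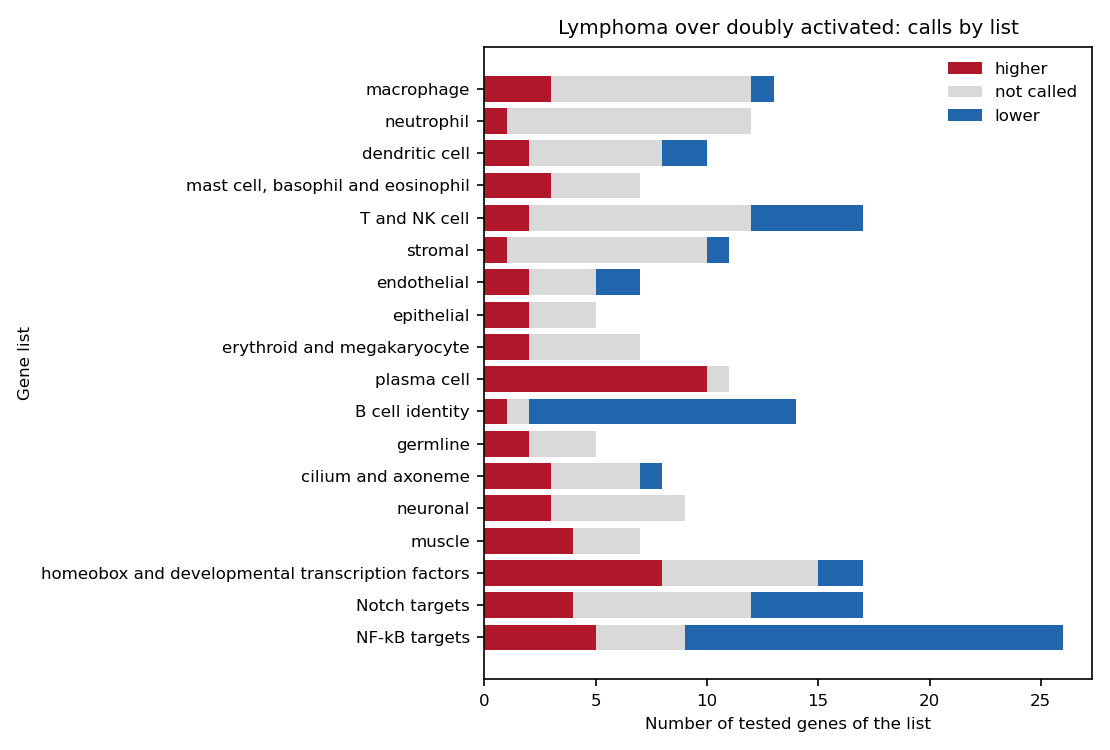
Number of tested genes of each list that were called higher (red), not called (grey) or called lower (blue) in lymphoma against doubly activated cells, with the 18 genes left out. Of 11 plasma cell genes 10 are red, and of 14 B cell identity genes 12 are blue.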

How the data were processed

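RNA sequencing of sorted mouse B lineage cells gave 10 libraries. The authors deposited, per the file headers, estimated counts per transcript, which from the values were not normalized, and TPM computed from them. Of tools and builds, kallisto 0.44.0 and mm10 appear in the submitters' processing notes. Which transcripts were indexed, and strandedness, are not stated there.

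Of 88198 transcripts 86031 were matched by identifier to GENCODE M21 and summed to 30205 genes; the 2167 unmatched held 1.09% to 1.38% of counts and stayed in the library totals behind CPM. Rounded counts were tested with edgeR 4.0.16 (R 4.3.3): filterByExpr (minimum count 10, total 15), TMM, and the robust quasi-likelihood test over 5 groups and 10 libraries together (residual df 5), two-sided, Benjamini-Hochberg, called at 0.05. DESeq2 1.42.0 was an alternative.

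The genes, lists and comparisons were chosen with earlier results of these data known. Gene families were grouped by symbol after the members were known. All members are named, with 2 genes of each list by smallest p and neighbours called higher with at least 3 CPM; other genes were named after their values were seen. A floor of 3 counts bounds ratios against groups at 0, for counting error only.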

Additional observations from a re-analysis of the deposited data

Results flagged for a closer look

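With the same limits applied to genes of other annotated classes, 1 gene was found in lymphoma alone: Ighe, the constant region of IgE heavy chains (chromosome 12, 113269260 to 113273248, GRCm38). It was at 11.2 and 12.7 CPM in the lymphoma libraries, a mean of 11.98 CPM, and between 0 and 0.431 CPM in the other 8. It is annotated as an immunoglobulin constant gene and so fell outside the choice above, and its difference was not tested.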

How the results depend on the processing

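The number of genes found depended on the limits of the rule. It was 18 as chosen, 8 with a lymphoma minimum of 5 CPM, 8 with a limit of 0.25 CPM elsewhere, 38 with a limit of 1 CPM, 55 without both Notch-activated libraries and 115 with the doubly activated libraries alone as reference. Leaving out 1 library, which can only relax the rule, gave 18 to 22 genes. TPM with the same limits gave 17 genes, of which 10 were shared, and counts on protein coding transcripts alone gave 16, without Nme9, a and 4930474N05Rik and with Plce1 added. Genes called between doubly activated and control cells fell from 3090 to 1984 when only those groups were fitted and ranged from 1624 (without doubly activated 2) to 3081 with 1 library left out; library size alone in place of TMM moved the share called higher from 53.1% to 41.7%. Between NF-kB-activated and control cells the 2388 calls ranged from 1435 to 2205 with 1 library left out, and were 1497 without NF-kB-activated 1 and 1435 without NF-kB-activated 2. Library size alone shifted the median log2 of all genes between Notch-activated and control cells from 0.07 to 0.18. Neighbours called higher numbered 11, 10 to 11 with 1 library left out, and 22 with 2 genes on each side. Of 71 single results (a gene in 1 comparison), 16 lost their call in at least 1 alternative, and none changed direction.

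Same-numbered libraries did not deviate together over all genes (r = -0.101 to 0.0606 over 9899 genes). With 2 libraries per group this cannot exclude a shared origin that affects few genes. With a replicate block the calls were 7634 for lymphoma against doubly activated (7988 without), 2794 for doubly activated, 9621 for Notch-activated (9922 without) and 2100 for NF-kB-activated against control. A crossed pairing, added after seeing the data, gave 7764 and 2121 calls for the first and last of these.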
